A study of Mus musculus with 29 samples.

Results

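Acute-phase genes, most of which encode secreted proteins, were followed through 29 bulk RNA libraries of cultured adipose stromal cells. The group comprised 10 genes out of 56953 features in the deposited table, namely Saa3, Saa1, Saa2, Hp, Orm1, Serpina3n, Serpina3g, Slpi, Lcn2 and the cytokine gene Il6. They were picked by symbol, through their Ensembl identifiers. Saa3, Hp and the depot and sex differences of both were known from these same libraries when the list was made. The differences between depots and between labelled sexes are therefore given as a description of the members and not as a test of them.

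The cultures were stromal vascular fraction (SVF), the mixture of non-adipocyte cells that is released when white fat is digested, from C57BL6/J mice. The cells came from inguinal (iWAT, subcutaneous) or perigonadal (pgWAT, visceral) white adipose tissue and were grown for 4 days in PM1 medium with 1 nM bFGF, a growth factor that all groups received. By label there were 10 male and 9 female wells of iWAT, and 4 male and 6 female wells of pgWAT. The labels give the strain as the genotype and no age or other treatment. Per the study the wells were technical replicates from only a few independent experiments, fewer for pgWAT than for iWAT. No label ties a well to its experiment or animal, so every p-value measures the spread among wells only. Since these were bulk cultures, fewer cells of a type and less RNA per cell cannot be told apart.

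The acute-phase response is the change in plasma proteins that follows infection or injury. In the liver it is driven mainly by IL-6, which signals through the receptor subunit gp130 to STAT3, and by IL-1 and TNF, which act through NF-kB, with C/EBP factors as partners at many of the promoters. Several of the genes are also transcribed outside the liver, and adipose tissue is a known extrahepatic source of Saa3, haptoglobin, lipocalin-2 and IL-6 itself.

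The libraries held between 315316 and 1102234 counts, and 3 counts, the limit that a count of 0 allows, corresponded to between 2.58 and 9.76 CPM (counts relative to scaled library totals), depending on the library. Fibroblast markers (Col1a1, Col3a1, Dcn, Lum, Pdgfra and Fn1) were all detected, and their summed level ranged from 6387.3 to 12199.1 CPM in iWAT and from 11686.5 to 22687.8 CPM in pgWAT. By Xist and 4 Y-linked genes (Kdm5d, Uty, Ddx3y and Eif2s3y), all 19 iWAT wells matched their labelled sex. In pgWAT 5 of 10 wells did not. They were all the pgWAT wells in columns 9 and 10 of the library plate, while the pgWAT wells in columns 7 and 8 matched. Mismatch and plate column can therefore not be told apart within pgWAT. The wells labelled pgWAT male 2 and 4 held 24 and 60 counts of Xist and 1 and 0 Y-linked counts. The wells labelled pgWAT female 1, 2 and 3 held 7, 0 and 0 counts of Xist and 10, 23 and 26 Y-linked counts. The study reports low counts of Ddx3y and Eif2s3y in female pgWAT cultures and describes them as contamination of low grade. The group sizes that it states also differ from those of the labels. The 5 wells keep their labels below. The fitted depot and labelled-sex differences of the members are given with and without them, while levels, covariation and nearest genes over pgWAT use all 10 wells.

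The wells also differed in markers of other cell types, and several of their sums are given beside the results. The summed level of 10 macrophage markers, led by Lyz2, was 7254.4 and 7835 CPM in pgWAT male 1 and 3 and between 2170.1 and 3274 CPM in pgWAT female 1 to 3. In the other 5 pgWAT wells it lay between 721.7 and 1127 CPM, inside the range of the 19 iWAT wells, 626.2 to 2447.6 CPM. The 8 mesothelial markers summed to between 57.3 and 182.6 CPM in pgWAT and to between 0 and 12.7 CPM in iWAT. The 7 adipocyte markers, led by Lpl, summed to between 1220.4 and 2128.7 CPM in pgWAT and to between 196.1 and 980 CPM in iWAT, again with no overlap. Of these 7 markers Lpl and Fabp4 passed the filter. Lpl averaged 465.5 CPM in iWAT and 1649.5 CPM in pgWAT, whereas Fabp4 averaged 89.7 and 82.5 CPM and was not called. Adipoq reached 33.3 CPM at most, in iWAT, and Retn 15.6 CPM at most, in pgWAT. The separation of the sum therefore came from Lpl. Sums of mural, endothelial and epithelial markers overlapped between the depots. The mural sum still had a median of 852.5 CPM in iWAT and 2331.1 CPM in pgWAT. Of 8 mural markers 3 were tested, and all 3 were called higher in pgWAT, where 20.1% of tested genes were. Among them Mylk did not overlap, with 3.4 to 27.4 CPM in iWAT and 35.8 to 159.9 CPM in pgWAT. Of 10 neutrophil markers, S100a9, Ngp and Retnlg were at 0 in every library and S100a8 reached 6.94 CPM at most. The neutrophil sum, 2.11 to 16.9 CPM in iWAT and 19.5 to 45.1 CPM in pgWAT, was led by Mmp8, the only marker of that list that passed the filter on low counts.

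The 250 bases upstream of the start sites of the members were read for binding motifs of the factors named above. Sequences were taken from RefSeq (GRCm38.p6, whereas the deposited counts were made on GRCm39), where 8 of the 10 genes had an entry, and Hp and Orm1 had none. The motifs were TTGCNNAA for C/EBP, GGG, any 2 bases and TTTCC for NF-kB and TTCNNNGAA for STAT, each searched on both strands. They were written with these promoters in view, and a match is a description of letters and not of a bound site. Shown are the 4 tested members that had an entry, together with Il6, which carried matches to 2 motifs. Each is written 5′ to 3′ on the strand of the gene, and capitals mark the matches.

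Saa3, upstream of the start site, chr7:46715677-46715926, minus strand: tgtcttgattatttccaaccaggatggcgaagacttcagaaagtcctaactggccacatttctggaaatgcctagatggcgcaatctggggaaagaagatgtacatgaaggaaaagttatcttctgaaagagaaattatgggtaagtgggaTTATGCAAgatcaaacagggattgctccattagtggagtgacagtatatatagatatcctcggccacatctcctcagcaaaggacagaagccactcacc
Slpi, upstream of the start site, chr2:164356508-164356757, minus strand: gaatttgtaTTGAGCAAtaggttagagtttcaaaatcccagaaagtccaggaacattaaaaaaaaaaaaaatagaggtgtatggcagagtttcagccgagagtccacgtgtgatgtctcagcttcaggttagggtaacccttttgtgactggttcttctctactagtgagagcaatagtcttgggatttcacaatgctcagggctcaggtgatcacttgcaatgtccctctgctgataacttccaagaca
Serpina3n, upstream of the start site, chr12:104406458-104406707, plus strand: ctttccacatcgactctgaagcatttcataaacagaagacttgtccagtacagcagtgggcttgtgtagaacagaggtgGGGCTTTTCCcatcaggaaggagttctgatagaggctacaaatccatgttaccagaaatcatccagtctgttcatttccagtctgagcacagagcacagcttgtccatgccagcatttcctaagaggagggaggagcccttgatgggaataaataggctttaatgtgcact
Serpina3g, upstream of the start site, chr12:104235897-104236146, plus strand: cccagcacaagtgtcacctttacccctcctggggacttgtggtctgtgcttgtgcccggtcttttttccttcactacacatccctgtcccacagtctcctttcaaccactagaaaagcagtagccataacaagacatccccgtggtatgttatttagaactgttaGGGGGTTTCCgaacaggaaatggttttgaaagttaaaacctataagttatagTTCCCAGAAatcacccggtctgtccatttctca
Il6, upstream of the start site, chr5:30012864-30013113, plus strand: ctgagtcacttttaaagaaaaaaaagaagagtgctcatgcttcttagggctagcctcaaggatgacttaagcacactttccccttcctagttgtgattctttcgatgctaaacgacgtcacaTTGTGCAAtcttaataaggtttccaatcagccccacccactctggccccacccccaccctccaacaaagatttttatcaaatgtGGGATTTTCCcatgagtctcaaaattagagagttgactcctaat

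The windows of Saa3, Saa1, Saa2, Lcn2, Slpi and Il6, 6 of 8, held the C/EBP motif, which 9.56% of 32851 windows of this length held. The NF-kB motif was in 3 of 8, those of Serpina3n, Serpina3g and Il6, against 1.41% of all windows. The STAT motif was in 1 of 8, that of Serpina3g, against 7.02%. The match of Saa3 ended 92 bases and that of Il6 ended 121 bases upstream of the start site. Saa1 and Saa2 are close copies of each other and 238 of their 250 upstream bases (95.2%) were identical.

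Only 5 of the 10 members passed the filter on low counts and could be fitted, namely Saa3, Hp, Serpina3n, Serpina3g and Slpi. Saa3 passed through its pgWAT wells alone, since it dropped out when iWAT was filtered by itself. Lcn2, Il6, Saa1, Saa2 and Orm1 were too rare and are described by their counts. The plot of well levels shows the 5 tested members and Lcn2.

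**Figure D1:**
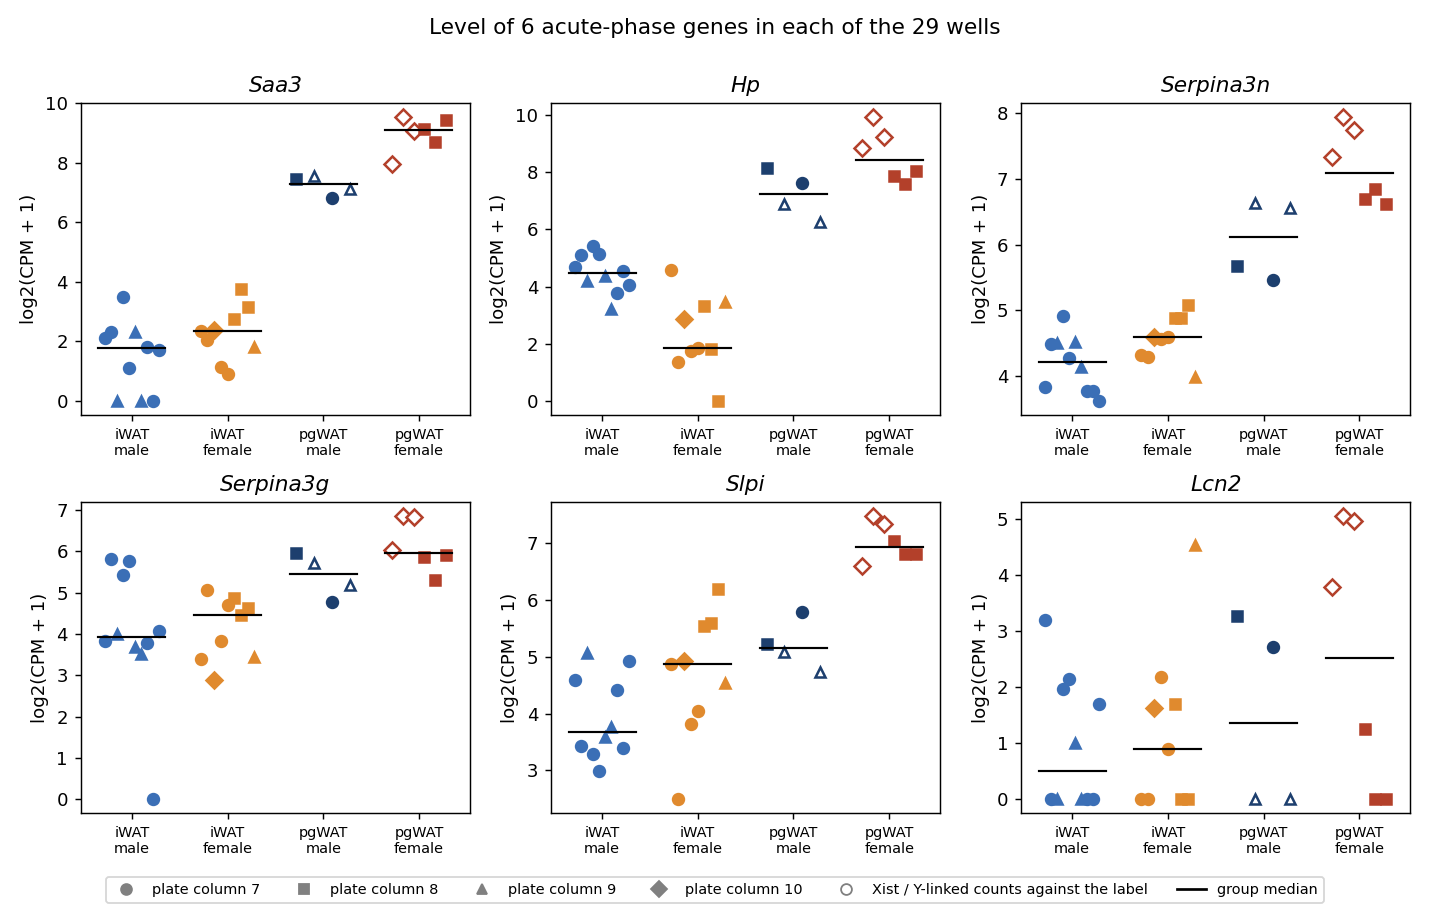
Level of 6 members in each of the 29 wells, as log2(CPM + 1), by depot and labelled sex. Marker shape gives the plate column, open markers are the 5 pgWAT wells whose sex-linked genes went against the label, and black lines are group medians. Saa3, Hp and Serpina3n of the 10 pgWAT wells all lie above the 19 iWAT wells, while Serpina3g, Slpi and Lcn2 overlap.

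Saa3 encodes serum amyloid A3, the isoform of the amyloid A family made outside the liver. It was nearly absent from iWAT. The iWAT male wells ranged from 0 to 10.2 CPM with a median of 2.40 (n = 10), and the iWAT female wells from 0.859 to 12.4 CPM with a median of 4.04 (n = 9). The 4 pgWAT male wells held 175.3, 188.4, 111.1 and 137.1 CPM, and the 6 pgWAT female wells ranged from 249.7 to 739.8 CPM with a median of 548.4. The depots did not overlap, and within pgWAT every well labelled female lay above every well labelled male. In iWAT 50 counts were seen in 16 of 19 wells, with at most 10 in a well, against 1940 counts in 10 pgWAT wells. The fitted difference, pgWAT minus iWAT with the labelled sexes weighted equally, was 6.15 on the log2 scale (SE 0.235), a 71.2-fold higher level.

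Saa1 and Saa2, the amyloid A isoforms that the liver secretes into plasma, were barely seen. Saa1 had 4 counts over 19 iWAT wells and 6 over 10 pgWAT wells, a ratio per total count of 3.23 with an exact 95% counting interval from 0.767 to 15.6. Saa2 had 1 and 6 counts, a ratio of 12.9 with an interval from 1.57 to 594.8. Reads without molecular identifiers are included, so these intervals cover counting error only. Saa1 and Saa2 share 30.1% and 22.2% of the 31-base words of their transcripts with each other or Saa3, and Saa3 shares 5.71% of its own. Read assignment between Saa1 and Saa2 is uncertain for that reason.

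Hp encodes haptoglobin, which binds free haemoglobin. Its level in iWAT was low and differed between the labelled sexes. The iWAT male wells ranged from 8.31 to 42.2 CPM with a median of 21.0, and the iWAT female wells from 0 to 22.9 CPM with a median of 2.58. Female 1, 6 and 9, with 22.9, 9.08 and 9.87 CPM, lay above the lowest male well, and the other 6 female wells lay below every male well. The 4 pgWAT male wells held 286.4, 117.5, 194.4 and 76.0 CPM, and the pgWAT female wells ranged from 189.7 to 972.2 CPM with a median of 360.6. The depots did not overlap. The fitted depot difference was 4.50 on the log2 scale (SE 0.297), a 22.6-fold higher level in pgWAT.

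Orm1, the plasma glycoprotein orosomucoid, had 1 count in 1 iWAT male well and 0 in the other 28 libraries. In pgWAT a count of 0 allows levels up to between 3.21 and 9.76 CPM per library. No fold is given.

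Serpina3n and Serpina3g belong to a family of serine protease inhibitors that is expanded in the mouse. Serpina3n, which resembles human antichymotrypsin, was detected in every library. It ranged from 11.3 to 29.1 CPM in iWAT male wells (median 17.5), and from 14.8 to 32.8 CPM in iWAT female wells (median 23.2). The 4 pgWAT male wells held 50.3, 98.5, 43.0 and 93.2 CPM, and the pgWAT female wells ranged from 97.6 to 244.9 CPM (median 137.1). The depots did not overlap, and the fitted difference was 2.31 on the log2 scale (SE 0.168).

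Serpina3g, an intracellular inhibitor of cathepsins first described in haematopoietic cells, overlapped between the depots. It ranged from 0 to 54.8 CPM in iWAT male wells (median 14.2) and from 6.33 to 32.4 CPM in iWAT female wells (median 21.1). The iWAT male wells 2, 4 and 5 held 54.8, 42.2 and 53.0 CPM, while the other 7 held 15.8 CPM or less. The pgWAT male wells held 60.8, 51.9, 26.4 and 35.3 CPM and the pgWAT female wells ranged from 38.5 to 115 CPM (median 61.3). In 6 of 10 pgWAT wells the level was above every iWAT well, and the fitted difference was 1.35 (SE 0.282). The principal transcripts of Serpina3n and Serpina3g share 21.6% and 30.1% of their 31-base words with other genes of the family. Summed over the Serpina3 genes the depot difference was 1.89 (SE 0.19), between the values of the single genes.

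Slpi encodes the secretory leukocyte protease inhibitor, which blocks neutrophil elastase. It ranged from 6.91 to 32.5 CPM in iWAT male wells (median 11.7) and from 4.63 to 72.4 CPM in iWAT female wells (median 28.3). The pgWAT male wells, with 36.5, 32.8, 54.1 and 25.7 CPM, lay inside the range of iWAT female wells. The pgWAT female wells, from 96.0 to 177.4 CPM (median 120.6), lay above every other well of the series. The fitted depot difference was 1.65 (SE 0.258), a 3.14-fold higher level in pgWAT.

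Lcn2 encodes lipocalin-2, which binds bacterial siderophores. It had 28 counts over the iWAT wells and 41 over the pgWAT wells, a 3.16-fold ratio per total count (exact interval 1.91 to 5.30). In pgWAT the counts were unevenly spread. Male 1 and 3 held 5 and 4 counts, female 1, 2 and 3 held 4, 13 and 14, and the other 5 pgWAT wells held 1 count in all. In CPM, female 1 to 3 stood at 12.8, 32.5 and 30.4, and the wells with 0 counts allow up to between 3.21 and 9.76 CPM. The 5 wells with 4 or more counts of Lcn2 were the wells with 10 or more Y-linked counts and also the 5 with the highest macrophage sum, 2170.1 CPM or more, and the part of either in this pattern was not tested.

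In iWAT the highest Lcn2 count was 9, in female 9, which was 22.2 CPM, and no other iWAT well passed 8.23 CPM. Female 9 also had the highest sum of epithelial markers, 2218.4 CPM, against 400.7 CPM or less in all other libraries. Its part in the Lcn2 level was not tested. Without that well the ratio of pgWAT to iWAT was 4.50, and without pgWAT female 3 it was 2.26.

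Il6 encodes interleukin-6, the cytokine that drives much of the hepatic response. It was detected in all 10 pgWAT wells but in 7 of 19 iWAT wells, never with more than 1 count in iWAT. The totals were 22 counts in pgWAT and 7 in iWAT, a 6.77-fold ratio per total count (exact interval 2.79 to 18.8), and leaving out single wells moved the ratio between 5.13 and 7.65. The most counts were in pgWAT male 4 and 2, with 8 and 4. Those wells held no Lcn2 and the lowest Hp of the pgWAT wells. The other 8 pgWAT wells held 1 or 2 counts of Il6, which does not separate them at this depth.

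Per kilobase of principal transcript the order of the median levels differed between depots. In pgWAT it was Saa3 (602.7 CPM per kb), Hp (184.9), Slpi (117.9), Serpina3n (48.7), Serpina3g (32.0), Lcn2 (3.79) and Il6 (2.62). In iWAT the place of Hp depended on the labelled sex. The medians of iWAT male wells were 15.6 CPM per kb for Hp, 13.4 for Slpi, 8.49 for Serpina3n, 7.85 for Serpina3g, 4.32 for Saa3 and 0.544 for Lcn2. In iWAT female wells Slpi came first at 32.3 CPM per kb, then Serpina3g (11.7), Serpina3n (11.2), Saa3 (7.28), Hp (1.92) and Lcn2 (0.939). The median of Il6 was 0 in both. In pgWAT the ranges of neighbours overlapped, for example Saa3 (200.1 to 1332.9) and Hp (56.5 to 722.8), and in iWAT Slpi ranged from 5.29 to 82.6 and Hp from 0 to 31.3, so these orders are of medians only.

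The depot difference was larger in the wells labelled female for each of the 5 tested members. For Saa3 it was 5.54 on the log2 scale (SE 0.365) in labelled males and 6.77 (SE 0.309) in labelled females. For Hp the values were 2.79 (SE 0.402) and 6.21 (SE 0.437). Serpina3n stood at 1.94 and 2.69, Slpi at 1.24 and 2.06 and Serpina3g at 0.81 and 1.9. In labelled males 4 of the 5 were called higher, with Serpina3g not called, where 11.8% of genes were called higher, and in labelled females all 5 were, where 14.2% were. The call of Slpi in labelled males was lost, which left 3 members, with plate column as a factor, without the 5 wells that went against their labels and without the 5 wells of highest macrophage sum. In the last of these settings both pgWAT male wells that were left, male 2 and 4, went against their labels. The call of Slpi was also lost without iWAT male 5, iWAT male 6 or pgWAT male 3, with values of 1.11, 1.15 and 0.99. Without the 5 wells that went against their labels the differences in labelled males and females were 5.41 and 6.82 for Saa3, 3.28 and 5.21 for Hp, 1.29 and 2.13 for Serpina3n, 1.52 and 1.9 for Slpi, and 0.78 and 1.35 for Serpina3g. All 5 tested members, which were chosen on this contrast, were called higher in pgWAT over both labelled sexes, where 20.1% of the 8853 genes tested were called higher and 38.1% were called in either direction. Of these genes 1.47% had every pgWAT well above every iWAT well, as Saa3, Hp and Serpina3n did.

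**Figure D2:**
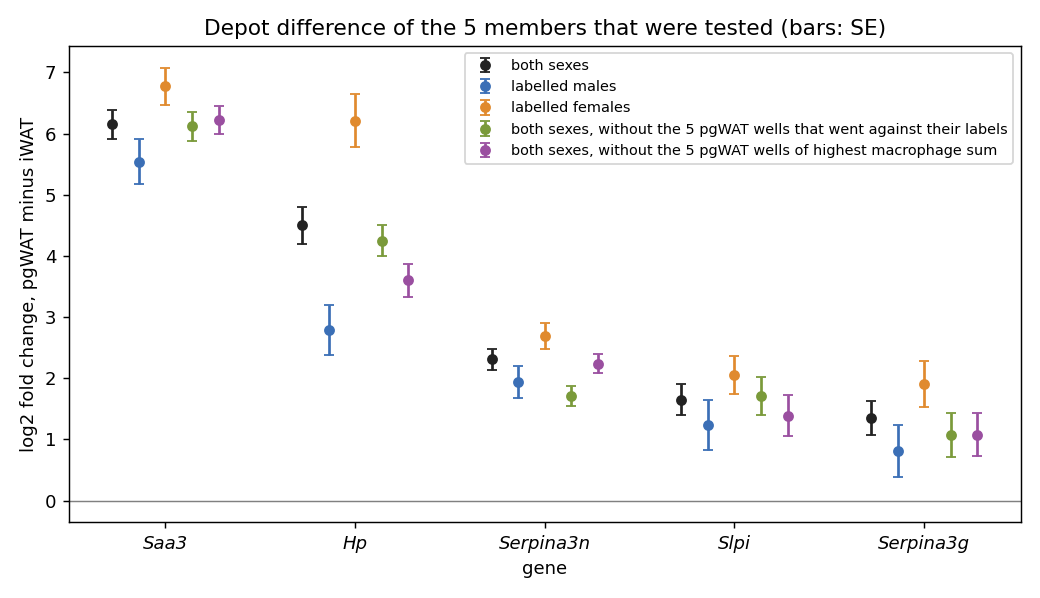
Fitted log2 fold change between depots (pgWAT minus iWAT, vertical axis) of the 5 tested members with standard errors, for both labelled sexes, for each labelled sex, and after leaving out 2 different sets of 5 pgWAT wells. All values are above 0, and Saa3 stays between 5.54 and 6.77.

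Leaving wells out changed the sizes more than the order. Without the 5 pgWAT wells whose sex-linked genes went against the label, the depot differences were 6.12 for Saa3, 4.25 for Hp, 1.71 for Serpina3n, 1.71 for Slpi and 1.07 for Serpina3g. Without the 5 pgWAT wells of highest macrophage sum, a setting added after the data were seen, they were 6.22, 3.60, 2.24, 1.39 and 1.08. The pgWAT wells that remained there, with macrophage sums inside the iWAT range, held between 137.1 and 693 CPM of Saa3 and between 76.0 and 263.5 CPM of Hp, above the iWAT maxima of 12.4 and 42.2. Mesothelial, adipocyte and neutrophil sums differed between the depots without overlap, so their part cannot be told apart from the depot. For the adipocyte sum this difference was that of Lpl. Mural sums overlapped but had medians of 852.5 CPM in iWAT and 2331.1 CPM in pgWAT, and their part was not tested.

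Within iWAT, Hp was higher in labelled males by 1.98 on the log2 scale (SE 0.503), and it was the only tested member called there, where 3.22% of genes were called. Slpi was lower in males by a log2 value of -1.0 (SE 0.341), and Saa3, Serpina3n and Serpina3g stood at -0.57, -0.36 and 0.32. With plate column as a factor the value of Hp was 2.36 and that of Slpi was -0.34. The iWAT male wells also had the higher macrophage sums, 1432.8 to 2447.6 CPM against 626.2 to 1104.6 CPM in females, with no overlap. Their adipocyte sums were also higher, 560.9 to 980 CPM against 196.1 to 484.6 CPM, and their epithelial sums lower, 1.96 to 56.3 CPM against 63.3 to 2218.4 CPM, both with no overlap. The part of these sums in the Hp difference was not tested.

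Within pgWAT all 5 tested members were lower in the wells labelled male. The log2 differences were -1.81 for Saa3 (SE 0.289), -1.82 for Slpi (SE 0.399), -1.43 for Hp (SE 0.414), -1.11 for Serpina3n (SE 0.256) and -0.77 for Serpina3g (SE 0.444). Saa3 was the 1 gene called of 8853 (0.0113%), and it was not called without pgWAT male 3. Without the 5 wells that went against their labels, which left 2 male and 3 female wells, Saa3 stood at -1.98, Slpi at -1.39, Serpina3n at -1.20 and Serpina3g at -0.27, and Hp at 0.05. With plate column as a factor Hp stood at -0.14, Slpi at -0.90 and Saa3 at -1.38, and no member was called. Macrophage sums ranged from 1077.2 to 7835 CPM in wells labelled male and from 721.7 to 3274 CPM in wells labelled female, which overlapped. Wells labelled male had lower mesothelial sums, 57.3 to 79.1 CPM against 80.0 to 182.6 CPM, and lower epithelial sums, 15.6 to 68.0 CPM against 81.6 to 310.3 CPM, both with no overlap. The part of these sums in the member differences was not tested.

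By label, the sex difference of Hp was opposite in the depots. The interaction, the pgWAT male minus female difference less that of iWAT, was -3.42 on the log2 scale (SE 0.652), 1 of 16 genes called (0.181%). The sex differences of Hp in these wells were known when the gene was chosen, so the value is a description. Without the 5 wells that went against their labels it was -1.93 and not called. Leaving out single wells gave between -4.04 and -3.05, with the call lost without pgWAT male 2 or male 4. The values for Saa3, Serpina3g, Slpi and Serpina3n were -1.23, -1.09, -0.81 and -0.75, and none was called. Grouped by sex-linked counts instead of labels, the 5 pgWAT wells with 10 or more Y-linked counts held 194.4 to 972.2 CPM of Hp. The 5 with 1 or 0 held 76.0 to 263.5 CPM, so the ranges overlapped. By that grouping Hp in pgWAT was not opposite to iWAT, but no difference was fitted, and the grouping also follows the macrophage sum.

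Within the pgWAT wells labelled female, plate columns were compared. The column 10 wells went against their labels and enter the labelled-sex difference of Hp, which was known when the genes were chosen. The comparison is therefore not independent of that choice, and its values are a description. The 3 female wells in column 10 held 457.7, 972.2 and 609.7 CPM of Hp, and the 3 in column 8 held 233.7, 189.7 and 263.5 CPM. Serpina3n stood at 160, 244.9 and 214.8 CPM in column 10 and at 102.4, 114.1 and 97.6 CPM in column 8. Neither gene overlapped between the columns. Saa3 did overlap, with 249.7, 739.8 and 538.1 CPM in column 10 and 558.8, 419.4 and 693 CPM in column 8.

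The fitted differences, column 8 minus column 10, missed the threshold for all 5 tested members, while 1.30% of genes were called. Of the members 2 had an unadjusted p under 0.05, limma voom called 2 and DESeq2 called 1. Hp was lower by a log2 value of -1.58 (SE 0.427, edgeR adjusted p = 0.0527) and Serpina3n by -0.98 (SE 0.265, adjusted p = 0.0531). Serpina3g stood at -0.96 (SE 0.53, adjusted p = 0.464), Slpi at -0.31 (SE 0.453, adjusted p = 0.845) and Saa3 at 0.12 (SE 0.334, adjusted p = 0.941). The adjusted p of Hp ranged from 0.0249 to 0.322 and that of Serpina3n from 0.031 to 0.294 over fits that left out 1 well. The Lcn2 counts, 4, 13 and 14 in column 10 and 1, 0 and 0 in column 8, went the same way as Hp.

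The column 10 wells are the 3 wells labelled female with Y-linked counts, and their macrophage sums were 2170.1 to 3274 CPM against 721.7 to 816.6 CPM in column 8. Without overlap, column 10 was also higher in fibroblast (19694.1 to 22687.8 against 11819.2 to 12789.9 CPM), endothelial (89.0 to 99.2 against 40.1 to 47.4 CPM) and epithelial sums (131.2 to 310.3 against 81.6 to 97.6 CPM). It was lower in the mesothelial sum, 80.0 to 119.3 against 154.1 to 182.6 CPM. Column, labelled-sex mismatch and these sums cannot be told apart here. Of the related genes, C3 (-1.65, adjusted p = 0.0244), Lbp (-2.17, adjusted p = 0.0107), Il6st (-0.99, adjusted p = 0.0122) and Il33 (-3.72, adjusted p = 0.00207) were also lower in column 8 by the edgeR test. Il1rn, the IL-1 receptor antagonist, named after its value was seen, was lower by -2.79 (adjusted p = 0.0235).

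**Figure D3:**
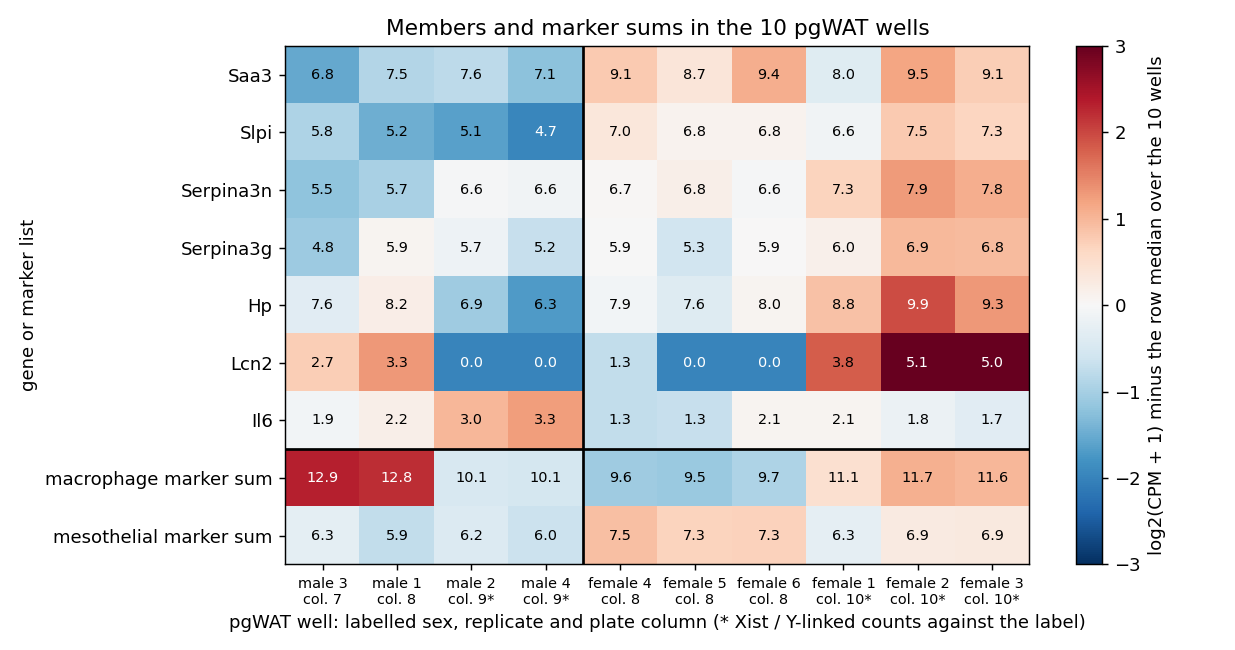
Levels of 7 members and of the macrophage and mesothelial marker sums in the 10 pgWAT wells, with log2(CPM + 1) printed in each cell and colour giving the difference from the row median. Columns are wells by labelled sex, replicate and plate column. Hp and Lcn2 are highest in the 3 female wells of column 10, Saa3 and Slpi are high in all 6 female wells, and Il6 is highest in male 2 and 4.

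The wells labelled pgWAT male also fell apart by sex-linked counts and macrophage sum, with 2 wells on each side. Male 1 and 3 held 34 and 32 Y-linked counts and 0 of Xist. Male 2 and 4 held 1 and 0 Y-linked counts and 24 and 60 of Xist. Male 1 and 3 also stood in plate columns 8 and 7, and male 2 and 4 in column 9. Fibroblast sums were lower in male 1 and 3, 13845.6 and 11686.5 CPM against 18827.6 and 16307.8 CPM. Mural and adipocyte sums were lower there too and the neutrophil sum was higher, all without overlap. These features cannot be told apart here. Male 1 and 3 held 286.4 and 194.4 CPM of Hp with macrophage sums of 7254.4 and 7835 CPM, and male 2 and 4 held 117.5 and 76.0 CPM with sums of 1127 and 1077.2 CPM. Serpina3n went the other way, with 50.3 and 43.0 CPM in male 1 and 3 and 98.5 and 93.2 CPM in male 2 and 4. Saa3 did not follow either split, with 175.3 and 111.1 CPM against 188.4 and 137.1 CPM. With 2 wells a side no test was made.

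In iWAT the 3 wells of column 8, all labelled female, stood high for several members, which was seen after the values were known. They held 45.4, 47.1 and 72.4 CPM of Slpi, above the 32.5 CPM that the other 16 iWAT wells reached at most. Their Saa3 levels were 5.67, 12.4 and 7.92 CPM and their Serpina3n levels 28.4, 28.5 and 32.8 CPM. Among the other iWAT wells only male 4 had as much of both, with 10.2 CPM of Saa3 and 29.1 CPM of Serpina3n. Hp did not share this, with 9.08, 2.48 and 0 CPM in the same wells.

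The comparison of iWAT column 7, with 11 wells, against the 8 wells in other columns, adjusted for labelled sex, called none of the 4 members that could be fitted, while 0.79% of 7214 genes were called. Slpi was lower in column 7 by a log2 value of -1.01 (SE 0.333, edgeR adjusted p = 0.166, unadjusted p = 0.00516). Hp stood at 0.68 (SE 0.42, adjusted p = 0.535), Serpina3g at 0.57 (SE 0.393, adjusted p = 0.593) and Serpina3n at -0.26 (SE 0.203, adjusted p = 0.63). Of these 4 members, Slpi alone had an unadjusted p under 0.05, and limma voom called none, while DESeq2 gave no adjusted p for them. Without a filter on low counts Slpi was called (adjusted p = 0.0102).

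Covariation between wells was measured within each depot on log2 CPM with a prior count of 2. In iWAT (n = 19 wells) the 10 pairs of tested members had a median Spearman's rho of 0.16, from -0.38 to 0.62. The highest was between Saa3 and Serpina3n, with a Pearson's r of 0.58 (permutation p = 0.0091, adjusted over 10 pairs 0.091) and a rho of 0.62 (permutation p = 0.00564, adjusted 0.0564). Without the 2 wells farthest from the median of Saa3 the r was 0.44, and within labelled sex the rho was 0.53. Saa3 had 0 to 10 counts in these wells, so counting error is large. Hp had a negative rho with Slpi (-0.38) and Serpina3n (-0.33), which came to -0.11 and 0.02 once the means of the labelled sexes had been removed. No pair in iWAT passed an adjusted threshold of 0.05.

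In pgWAT the 10 wells fell into small sets by label and column, so the values are a description over 10 wells that share these sets and no p is given. All 10 pairs had a positive rho, from 0.58 for Saa3 and Hp to 0.92 for Hp and Serpina3g, with a median of 0.70. Saa3 and Slpi followed at 0.83. After the means of the labelled sexes were removed the rho values ranged from -0.01 to 0.76 with a median of 0.30. Hp and Serpina3g (0.76), Serpina3n and Serpina3g (0.75) and Hp and Slpi (0.62) were the highest then, and Saa3 and Slpi came to 0.20. The difference between the depots in these values was not tested.

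**Figure D4:**
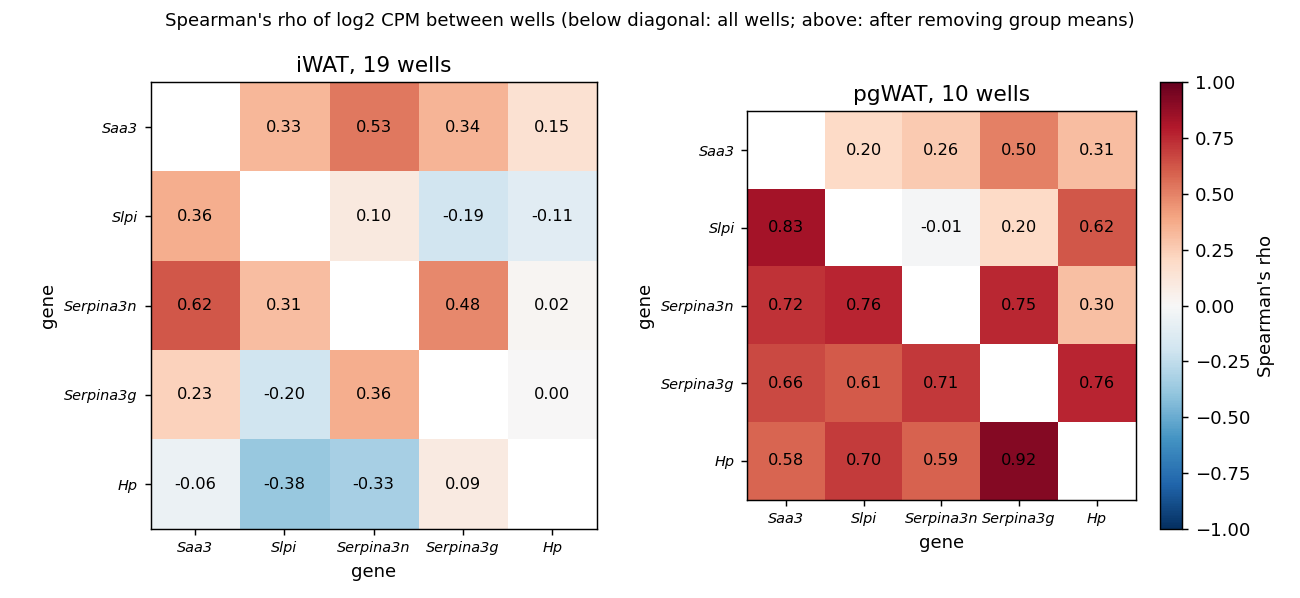
Spearman's rho of log2 CPM between wells for each pair of the 5 tested members, in iWAT (19 wells, left) and pgWAT (10 wells, right). Cells below the diagonal use all wells, and cells above it use values after the mean of each labelled group was removed. The pgWAT values below the diagonal run from 0.58 to 0.92 and those of iWAT from -0.38 to 0.62.

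The genes whose levels followed each member most closely over the 10 pgWAT wells were taken by Spearman's rho from 4893 genes with a mean log2 CPM of at least 5, or 4894 where the member was below that level. For Saa3 they were Arpc1a (0.927), Fbln1 (0.927) and Serping1 (0.915). For Hp they were Efemp2 (0.964), H6pd (0.952) and Ifitm2 (0.952). For Serpina3n they were Sdc4 (0.927), Arhgef25 (0.915) and Mmp3 (0.915), and for Serpina3g they were Uggt1 (0.939), Hp (0.915) and Rarres2 (0.915). For Slpi they were Emilin2 (0.903), Fbln1 (0.891) and Fkbp9 (0.891). Over the 19 iWAT wells the rho values of these pairs ran from -0.37 for Serpina3n and Sdc4 to 0.59 for Serpina3n and Mmp3. These genes were picked as the highest of all those compared over 10 wells, and the values are a description.

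Related genes were followed in lists by role, all in the depot comparison. There the median log2 difference of all tested genes was 0.01, 20.1% were called higher in pgWAT and 17.9% lower. The lists were chosen with earlier results of these data known, so their counts and p-values are a description. The list of other acute-phase genes held 32 genes, of which 11 were tested. When iWAT was filtered by itself 7 of the list passed. Some of the 11 may therefore have been tested only through pgWAT wells, which would favour a higher call there. Of the 11, 10 were higher in pgWAT and 0 lower, with a median of 1.53. The largest were the complement component C3, at 8.62 ± 6.76 CPM in iWAT (SD, n = 19) and 292.5 ± 230.4 CPM in pgWAT (SD, n = 10), a log2 difference of 4.72 (SE 0.289, edgeR adjusted p = 9.24e-15), and complement factor B, Cfb, at 3.44 (SE 0.369, adjusted p = 3.8e-09). Serping1, the C1 inhibitor, stood at 2.88 (adjusted p = 2.33e-13) and Lbp, which binds lipopolysaccharide, at 2.57 (adjusted p = 3.74e-08).

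Of the genes on that list that did not pass the filter, Fga, Fgg, Apcs, Hamp, Itih3, Orm2, Serpina3h and Serpina3k had 0 counts in all 29 libraries. Crp, the C-reactive protein gene, had 3 counts in iWAT and 9 in pgWAT. They are named here after their counts were seen. Without the 5 pgWAT wells of highest macrophage sum the list had 6 higher and 1 lower of 11, the lower being Il1rn at -1.83, while C3 stood at 3.92, Cfb at 2.99, Serping1 at 2.78 and Lbp at 1.52.

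Among the IL-6 family and its signalling genes 15 of 20 were tested, 8 were higher in pgWAT and 2 lower, with a median of 0.45. The STAT3 targets Pim1, a kinase, and Socs3, the feedback inhibitor, were higher by 2.02 (SE 0.217, edgeR adjusted p = 3.93e-09) and 1.59 (SE 0.228, adjusted p = 1.04e-06). Of the ligands and receptors, Lif was higher by 1.51 (adjusted p = 0.00319), Lifr by 1.03 (adjusted p = 0.000124) and Il6st, which encodes gp130, by 0.95 (SE 0.129, adjusted p = 3.66e-07). Stat3 was higher by 0.73 (adjusted p = 2.53e-06). The genes called lower were Il11 (-0.96) and Pias3 (-0.35), named after their values were seen. Without the 5 wells that went against their labels the calls of Lif (0.86), Il11 (-0.51) and Pias3 (-0.40) were lost. Without the 5 wells of highest macrophage sum the list had 7 higher and 3 lower of 16 tested, and its median went from 0.45 to 0.16. Il6ra, the ligand-binding IL-6 receptor, did not pass the filter, with 92 counts over 17 of 19 iWAT wells and 40 over 9 of 10 pgWAT wells.

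Of 32 genes of IL-1, TNF and Toll-like receptor signalling with NF-kB, 23 were tested, 7 were higher in pgWAT and 2 lower, with a median of 0.25. The alarmin Il33 was lower by a log2 value of -1.46 (SE 0.324, edgeR adjusted p = 0.000515), and the IL-1 receptor Il1r1 by -0.80 (SE 0.147, adjusted p = 4.37e-05). Nfkbiz, a nuclear cofactor of NF-kB, was higher by 0.69 (adjusted p = 0.00864), and the lipopolysaccharide receptor Tlr4 by 0.64 (adjusted p = 0.0378). The calls of Tlr4 and Nfkbiz were lost without the 5 wells that went against their labels (0.23 and 0.54), and that of Tlr4 also without the 5 wells of highest macrophage sum. The list then had 4 higher and 2 lower, and 4 higher and 3 lower, of 25 tested. Il1b had 0 counts in all libraries and Tnf had 13 counts in iWAT and 6 in pgWAT.

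Of 13 genes for C/EBP factors and glucocorticoid action 7 were tested, and 3 were higher in pgWAT and 0 lower. Hsd11b1, which regenerates active glucocorticoid, was higher by 3.30 (SE 0.232, edgeR adjusted p = 1.73e-13) and Klf9, a target of the glucocorticoid receptor, by 1.00 (adjusted p = 6.17e-05). With library totals alone for scaling the list had 2 higher and 1 lower. Without the 5 wells of highest macrophage sum it had 2 higher and 2 lower, and its median went from 0.36 to -0.22. The lower genes were Cebpa (-0.90) and Fkbp5 (-0.81), named after their values were seen, which over all wells stood at 0.36 and -0.39 and were not called. Cebpb and Cebpd did not pass the filter, with 45 and 33 counts in iWAT and 32 and 36 in pgWAT. Of 13 receptors and partners of the members 7 were tested and 4 were higher in pgWAT, of which Scarb1, a receptor for serum amyloid A and lipoproteins, was the largest at 1.08 (SE 0.223, adjusted p = 0.000208). Without the 5 wells of highest macrophage sum 1 was higher, Scarb1 at 1.02, and 1 was lower. The lower gene was Cd36, a fatty acid and scavenger receptor, named after its value was seen, which went from 0.81 (adjusted p = 0.0275) to -0.95 (adjusted p = 0.000815, both edgeR).

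**Figure D5:**
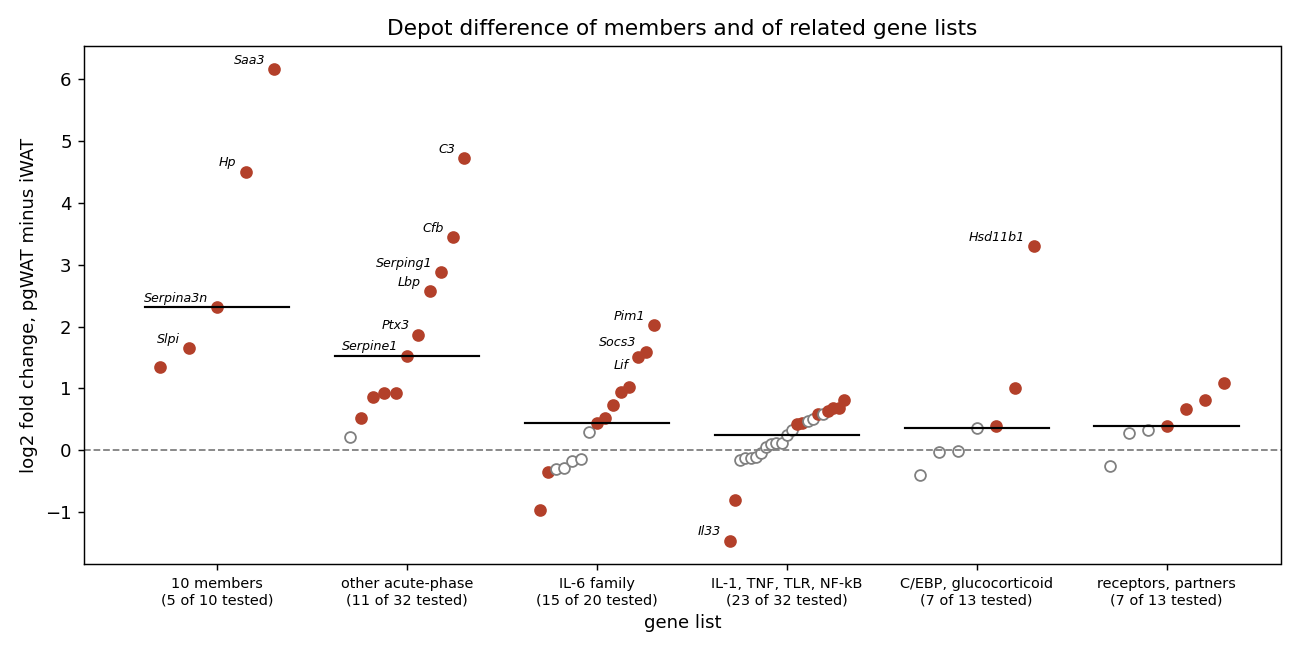
Log2 fold change between depots (pgWAT minus iWAT, vertical axis) of the tested members and of the tested genes of 5 related lists (horizontal axis). Filled points were called by the edgeR test at an adjusted p below 0.05, black lines are list medians and the dashed line is the median of all tested genes, 0.01. The medians run from 2.31 for the members and 1.53 for other acute-phase genes to 0.25 for the IL-1, TNF and NF-kB list.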

How the data were processed

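RNA from each culture well was turned into a Smart-seq3 library. Per the study's methods, reads were trimmed (NGmerge) and assigned to Gencode transcripts on GRCm39 with Salmon 1.9.0, and libraries in which few genes were detected had been dropped. What the authors deposited are expected counts, 1 value per gene and well, from UMI and other reads together and without normalization. Fractional values were rounded to whole counts. By Ensembl ID 91.4% of features received a symbol, and the rest, with 0.439% of counts, stayed in the totals.

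The main model was fitted over all 29 libraries with 1 term per group in edgeR 4.0.16 (R 4.3.3), with TMM scaling, filterByExpr and two-sided quasi-likelihood tests, and kept 8853 genes. The iWAT column comparison used its own fit of the 19 iWAT libraries with labelled sex as covariate (7214 genes). Called means an adjusted p (Benjamini-Hochberg, all tested genes) below 0.05. CPM used TMM-scaled totals. Wells carry numbers in order of deposition. On simulated counts the depot test recovered 84.8% of genes changed 2-fold (8528 genes), and the pgWAT female column test 79% of genes changed 4-fold (8516 genes). The simulated wells were independent, with 1 fixed spread for all genes and no shared experiments or cell mixtures. These shares therefore do not give the recovery in the real wells, and smaller changes were not simulated for the column test.

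Alternatives were DESeq2 1.42.0, limma voom 3.58.1, other scalings, no filter, plate column as a factor, and leaving out wells. Members, lists, motifs and tests were chosen with earlier results of these data known. Besides members and sex-check genes, the text names called list genes with a log2 difference of at least 1 (at most 4 per direction and list), 8 signalling genes (Il6ra, Il6st, Il1r1, Tlr4, Cebpb, Cebpd, Stat3, Nfkbiz) and the 3 genes most like each tested member. Permutation p-values were two-sided with 100000 resamples. Lengths and shared sequence came from a GRCm38 Gencode annotation.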

Additional observations from a re-analysis of the deposited data

Results flagged for a closer look

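Wells far from the rest of their group were looked for in 25 combinations of a member and a group with more than 3 counts in some well, by the gap to the nearest other well as a share of the group's range. The rule is meant to mark about 1 in 20 groups by chance, and 4 were marked. That rate was not checked for sparse counts such as these, so 4 cannot be read as an excess. Saa3 in iWAT male 4 was 10.2 CPM (7 counts), where the next well had 3.98 CPM. Hp in iWAT female 1 was 22.9 CPM (17 counts), where the next had 9.87 CPM. Lcn2 in iWAT male 1 was 8.23 CPM (5 counts), where the next had 3.46 CPM. Lcn2 in iWAT female 9 was 22.2 CPM (9 counts), where the next had 3.57 CPM.

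Hp differed between depots in its labelled-sex contrast, with an interaction of -3.42 on the log2 scale, from 1.98 in iWAT and -1.43 in pgWAT. These differences were known when the gene was chosen, so the value is a description. Of the 10 pgWAT wells behind it, 5 went against their labels by their sex-linked genes, and without them it was -1.93 and not called. The 5 pgWAT wells with 10 or more Y-linked counts held 194.4 to 972.2 CPM of Hp, against 76.0 to 263.5 CPM in the other 5.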

How the results depend on the processing

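No paired analysis was possible because the labels give plate wells and no replicate numbers shared between groups. No called member value changed sign. Uncalled values that did were pgWAT sex for Hp (-1.43 to 0.05 without the 5 wells that went against their labels), the interaction for Serpina3n (-0.75 to 0.24 without the 5 wells of highest macrophage sum) and the pgWAT female columns for Saa3 (0.12 to -0.21 without female 1 and -0.06 without female 6). The 5 tested members were called between the depots under every alternative run and in every fit that left out 1 well. They had been chosen on this contrast, so these calls are a description and give no support. Of all tested genes 38.1% were called in the main fit. The counts of calls below refer to all genes, with members after them, and the causes were not tested. Without the 5 pgWAT wells that went against their labels, the depot calls in labelled males fell from 1801 to 872 (members from 4 to 3), the pgWAT sex calls rose from 1 to 536 (members from 1 to 2) and the interaction calls from 16 to 244 (members from 1 to 0). Without the 5 pgWAT wells of highest macrophage sum, added after seeing the data, pgWAT sex gave 14 calls and the interaction 150, and 3 members were called in labelled males. The pgWAT wells left in that setting, male 2 and 4 and female 4 to 6, all held Xist and 1 or 0 Y-linked counts. Both of its pgWAT male wells went against their labels, so its labelled-sex results do not compare the sexes by sex-linked genes. With plate column as a factor, iWAT sex gave 496 calls against 285, pgWAT sex gave 58 (members 0) and 3 members were called in labelled males. With no filter, iWAT sex gave 509 (members 2), pgWAT sex 59 (members 4), the interaction 73, the pgWAT female columns 316 against 115 (members 2 against 0) and iWAT column 7 gave 245 against 57 (members 1 against 0). With DESeq2, pgWAT sex gave 17 (members 3), the interaction 37, iWAT column 7 gave 127 and the pgWAT female columns called 1 member. With limma voom, pgWAT sex gave 6 (members 2), the interaction 2 (members 0), iWAT sex called 0 members and the pgWAT female columns 2.

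Leaving out 1 well at a time gave 1184 to 1905 depot calls in labelled males, lowest without pgWAT male 4, with 3 to 4 members. It gave 1 to 2 members called for iWAT sex. For pgWAT sex it gave 0 to 9 calls, 0 without pgWAT male 3 and 9 without pgWAT male 4, with 0 to 1 members. For the interaction it gave 3 to 31, 3 without pgWAT male 2 or 4 and 31 without pgWAT male 1, with 0 to 1 members. For the pgWAT female columns it gave 30 to 175, lowest without pgWAT female 4 and highest without female 1, with 0 to 2 members. For iWAT column 7 it gave 16 to 119, lowest without iWAT female 2 and highest without iWAT male 10. At this depth Lcn2, Il6, Saa1, Saa2 and Orm1 could not be compared beyond their summed counts.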
